A study of Bos taurus with 16 samples.

Results

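Fast-twitch muscle fibres are set apart by the isoforms of their contractile proteins, and 10 genes of this kind were followed here in newborn calves. They were the myosin heavy chain genes MYH1, MYH2 and MYH4, the light chain genes MYL1 and MYLPF, the troponin genes TNNT3, TNNI2 and TNNC2, the tropomyosin gene TPM1 and the calcium pump gene ATP2A1. Their rows were taken by NCBI gene ID from the tables of 34109 genes deposited for round and sirloin muscle, and all 10 were found and passed the filter on low counts. The reference lists MYLPF (gene ID 514106) under the symbol MYL11. No promoter, protein or genome sequence was used here.

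The samples were 8 newborn male calves of Hanwoo, a Korean beef cattle breed, each sampled in the round and in the sirloin muscle at birth and before any colostrum, which gave 16 RNA-seq libraries. The dams of 4 calves (control) were fed 100% of their nutritional requirement, and those of the other 4 calves (treated) were fed 150% during mid to late pregnancy. Replicates 1 to 4 are calves, the same number within a diet being the same calf in both muscles, and the muscle within each cut is not given in the sources used here. The design asked whether overfeeding of the dam changed the genes of the calf's muscle in either cut.

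Force in a muscle fibre comes from myosin heads that pull on actin, and the heavy chain that a fibre makes largely sets how fast it shortens. Slow fibres carry the heavy chain of MYH7, and fast fibres carry those of MYH2 (type IIa, the more oxidative kind), MYH1 (type IIx) or MYH4 (type IIb, the fastest kind). Light chains, troponins, tropomyosin and the calcium pump also come in fast and slow forms, and fibre types shift around birth as the embryonic and perinatal myosins of MYH3 and MYH8 give way. Cattle limb and back muscles are known to be mixed, with fibres of the slow and fast kinds side by side.

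Total counts per library ran from 44473011 to 72446933, and the lowest count of any of the 10 genes in any library was 14901, so that counting error is small beside the spread between calves. Levels of different genes are set side by side in TPM, which scales read counts by transcript length and library total, while mean CPM, not scaled to length, chose which genes of the further lists are named. General skeletal muscle markers summed to 37563 to 72918 TPM in every library, and HOXC11, a Hox gene of the rear of the body, was at 1.69 to 3.44 TPM in all 8 round libraries and listed at 0 in all 8 sirloin libraries. Connective tissue markers summed to 174 to 740 TPM except in round control replicate 2 with 2141 TPM, and adipocyte markers to 15 TPM or less except in sirloin treated replicate 4 with 3777 TPM. The part of these tissues in the values of those libraries was not tested.

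Among the round libraries, treated replicates 2 and 3 stood apart from the other 6. They were the lowest of the 8 round libraries in 7 of the 10 fast fibre genes (MYH1, MYH4, MYLPF, TNNT3, TNNI2, TNNC2 and TPM1) and the highest in 7 of 10 slow fibre genes. MYH7 stood at 11858 and 3769 TPM there, against 1354 to 2954 TPM in the other round libraries, and TNNC1, the slow and cardiac troponin C, at 22097 and 9655 TPM against 2799 to 5908 TPM. In the sirloin of the same calves MYH7 was at 1956 and 3911 TPM, the second being the highest of a sirloin range that began at 1325 TPM, and MYLPF at 20699 and 20085 TPM in a range of 20085 to 26671 TPM. HOXC11 was at 2.23 and 2.50 TPM in these round libraries, within the range of the round muscle. The muscle of the round from which each library was cut is not given in the sources used here, and its part in these values was not tested. Heart markers summed to 563 and 432 TPM in round treated replicates 2 and 3. The other round libraries held 65.6 to 174 TPM of them, and sirloin libraries up to 312 TPM. In round treated replicate 2 the heavy chain gene MYH6 alone held 562 TPM, while NPPA, NPPB and MYL7 were below 1 TPM in every group. Results on the round muscle are also given without treated replicates 2 and 3, since these stood apart, an alternative added after the data were seen. In bulk tissue, fewer fibres of a type and less RNA per fibre cannot be told apart.

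**Figure D1:**
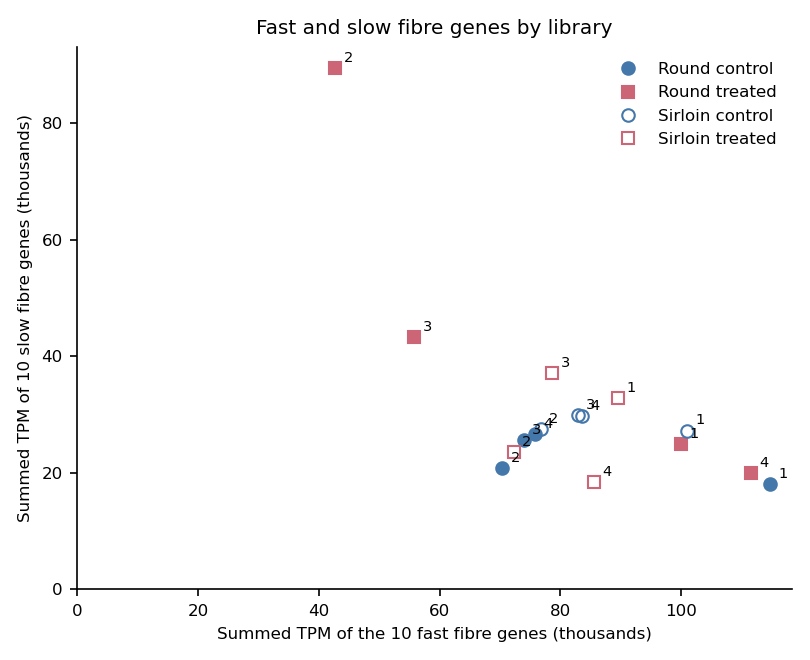
Summed TPM of the 10 fast fibre genes (horizontal axis) against summed TPM of 10 slow fibre genes (vertical axis), with 1 point for each of the 16 libraries, numbered by replicate. Round treated replicates 2 and 3 lie at the upper left, at 42709 and 55833 TPM of fast and 89567 and 43355 TPM of slow fibre genes, while the other round libraries hold 18096 to 26622 TPM of slow fibre genes.

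Together the 10 genes took 4.27% to 11.5% of all TPM in round and 7.23% to 10.1% in sirloin muscle. MYLPF, the regulatory light chain of fast myosin, was the most abundant of them in both muscles, with a median over 8 libraries of 19453 TPM in round and 20973 TPM in sirloin. MYH4 was the least abundant, with medians of 278 and 260.0 TPM. Between them the order of the medians in round muscle was MYL1, TNNC2, TNNT3, TPM1, TNNI2, MYH2, MYH1 and ATP2A1, from 11465 TPM for MYL1 to 2994 TPM for ATP2A1. Every neighbouring pair in this order had overlapping ranges except ATP2A1 and MYH4. In sirloin muscle the order below MYLPF was TNNC2, TNNT3, MYL1, TPM1, MYH2, TNNI2, ATP2A1, MYH1 and MYH4, and the ranges were apart between MYLPF and TNNC2, between TNNI2 and ATP2A1 and between MYH1 and MYH4.

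**Figure D2:**
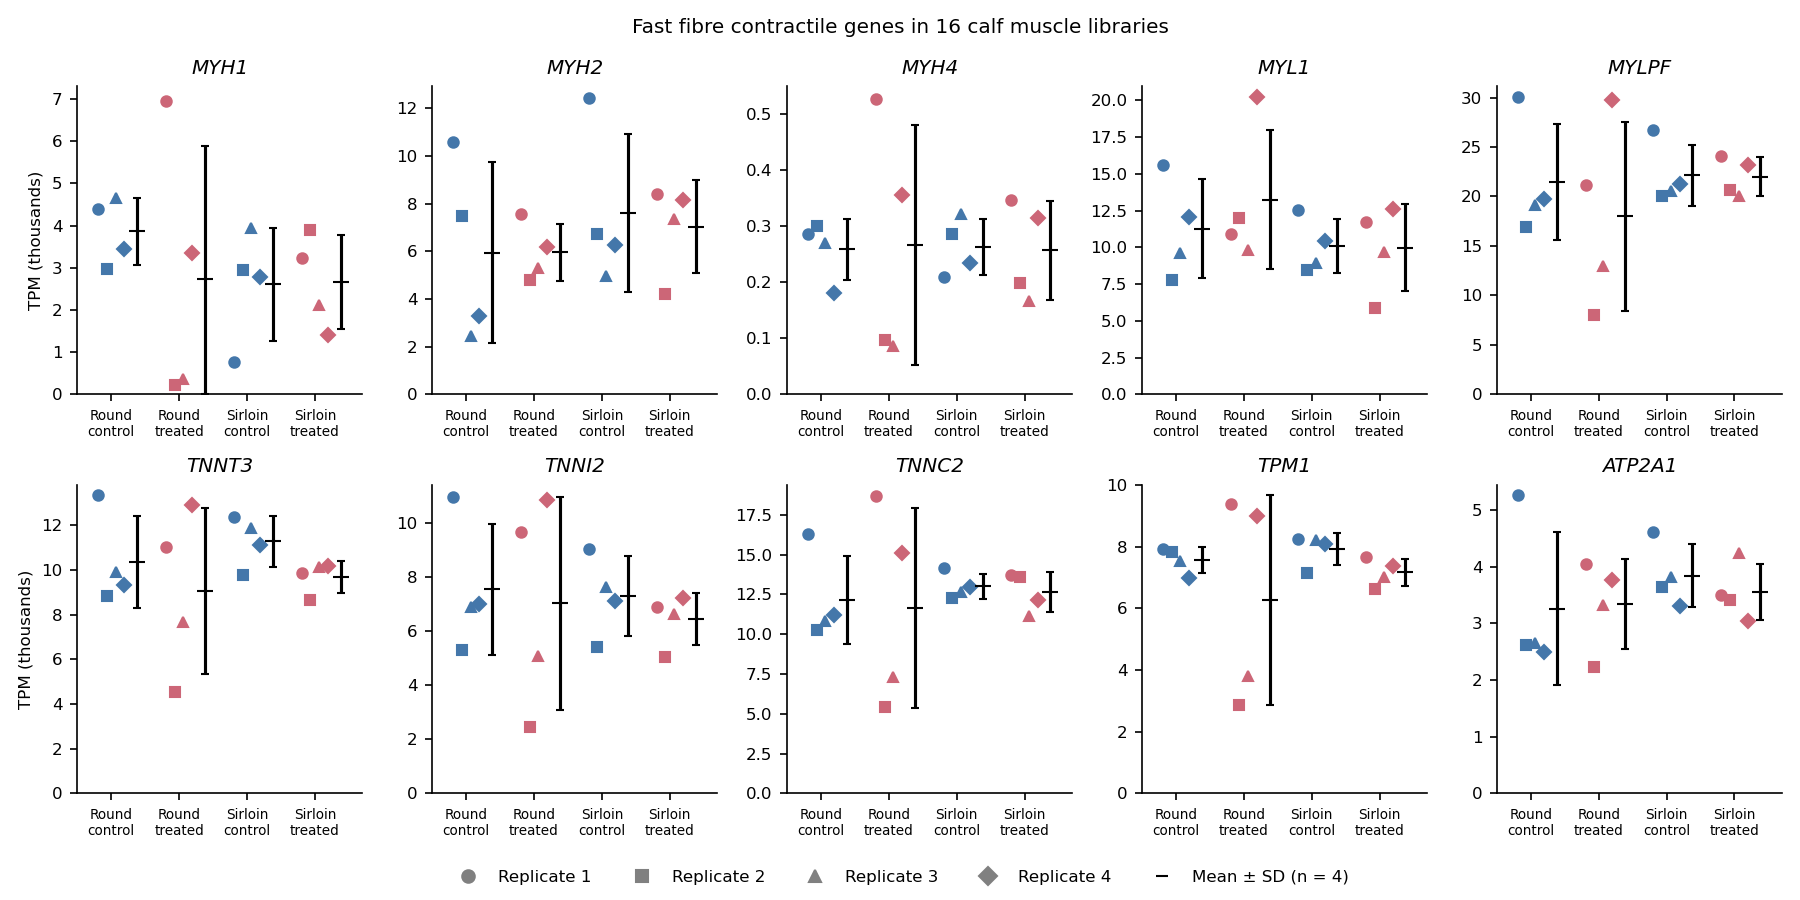
TPM (vertical axes) of each of the 10 genes in the 4 groups, with 1 symbol per calf and the mean ± SD (n = 4) to its right, the bar being cut at 0 for MYH1 in treated round muscle. In round muscle the treated calves 2 and 3 (square and triangle) lie below the other calves in most panels, and in sirloin muscle the diets overlap in all 10 panels.

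Of the heavy chains, MYH1 (type IIx, gene ID 281337) varied the most from calf to calf. In round muscle it measured 4394, 2973, 4662 and 3443 TPM in control replicates 1 to 4 and 6961, 223, 374 and 3358 TPM in treated replicates 1 to 4. In sirloin muscle it measured 759.6, 2944, 3944 and 2784 TPM in control replicates 1 to 4 and 3223, 3890.0, 2114 and 1399.5 TPM in treated replicates 1 to 4. Very low values in treated round muscle, 223 and 374 TPM, lay in 1 group with the highest of all libraries, 6961 TPM, and the lowest sirloin value was that of control replicate 1.

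MYH2 (type IIa, gene ID 788772) was the most abundant heavy chain of the group by its median, and exceeded MYH1 in 14 of 16 libraries. Round muscle held 10578, 7486, 2450.3 and 3279 TPM in control replicates 1 to 4 and 7549, 4787, 5316 and 6194 TPM in treated replicates 1 to 4. Sirloin muscle held 12429, 6739, 4957 and 6285 TPM in control replicates 1 to 4 and 8409, 4203, 7374 and 8161 TPM in treated replicates 1 to 4. Control replicate 1 was the highest library in both muscles and the diets overlapped in both. The low treated round libraries of MYH1 were in the middle of the range for MYH2.

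MYH4 (type IIb, gene ID 408020) stayed at or below 526 TPM in every library. Its round levels were 287, 301, 269 and 180.0 TPM in control replicates 1 to 4 and 526, 97.8, 85.5 and 355 TPM in treated replicates 1 to 4. Its sirloin levels were 209, 285, 321 and 235 TPM in control replicates 1 to 4 and 348, 198, 167 and 315 TPM in treated replicates 1 to 4. Treated calves 2 and 3 were the lowest in both muscles, and treated calf 1 was the highest in both. MYH1, MYH2 and MYH4 lie in a single cluster with MYH3, MYH8 and MYH13 in the reference, and their sequences are much alike, so reads that fit several of them could have been split or lost in a way that the tables do not show.

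The light chains were MYL1, the essential light chain of fast fibres, and MYLPF. MYL1 stood at 15599, 7787, 9595 and 12083 TPM in control replicates 1 to 4 and 10919, 12012, 9837 and 20266 TPM in treated replicates 1 to 4 in round muscle. In sirloin muscle MYL1 stood at 12551, 8471, 8952 and 10415 TPM in control replicates 1 to 4 and 11733, 5899.9, 9695 and 12628 TPM in treated replicates 1 to 4. The highest value, in round treated replicate 4, was well above the others, and round treated replicates 2 and 3 were in the midst of the range. MYLPF reached 30062, 16958, 19121 and 19786 TPM in control replicates 1 to 4 and 21173, 8064, 12971 and 29797 TPM in treated replicates 1 to 4 in round muscle. Its sirloin values were 26671, 20086, 20507 and 21247 TPM in control replicates 1 to 4 and 24128, 20699, 20085 and 23141 TPM in treated replicates 1 to 4, a much narrower band.

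Calcium switches the thin filament on through the troponin complex, in which TNNC2 binds calcium, TNNI2 inhibits and TNNT3 ties the complex to tropomyosin. TNNC2 was at 16286, 10261, 10862 and 11213 TPM in control replicates 1 to 4 and 18714, 5438, 7334 and 15096 TPM in treated replicates 1 to 4 in round muscle. It was at 14134, 12282, 12672 and 12972 TPM in control replicates 1 to 4 and 13748, 13618, 11168 and 12129.7 TPM in treated replicates 1 to 4 in sirloin muscle. Treated calves thus held both the highest and the lowest round levels of TNNC2. TNNI2 was at 10996, 5322, 6889 and 7023 TPM in control replicates 1 to 4 and 9696, 2466, 5101 and 10868 TPM in treated replicates 1 to 4 in round muscle. Sirloin libraries gave 9046, 5423, 7648 and 7123 TPM in control replicates 1 to 4 and 6891, 5050.3, 6658 and 7229 TPM in treated replicates 1 to 4 for TNNI2. Round levels of TNNT3 were 13370.3, 8861, 9911 and 9316 TPM in control replicates 1 to 4 and 11054, 4538, 7673 and 12934 TPM in treated replicates 1 to 4, and its sirloin values are given with the diet comparison. Group means of TNNI2 were 7557 ± 2419 (control) and 7033 ± 3932 TPM (treated) in round and 7309.8 ± 1497 and 6457 ± 967 TPM in sirloin muscle (mean ± SD, n = 4 each). For TNNT3 they were 10364 ± 2049.5 and 9049.7 ± 3713 TPM in round and 11284 ± 1128 and 9709.6 ± 719 TPM in sirloin muscle. The SD of the treated round group was the largest of the 4 groups in each of these 3 troponins.

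TPM1, an alpha tropomyosin that lies along actin and is also made in heart and other cells, measured 7916, 7818, 7533 and 6969.7 TPM in control replicates 1 to 4 and 9379, 2849, 3814 and 8985 TPM in treated replicates 1 to 4 in round muscle. The corresponding sirloin levels were 8264, 7150.3, 8232 and 8078 TPM in control replicates 1 to 4 and 7659, 6642, 7025 and 7377 TPM in treated replicates 1 to 4. Round treated replicates 2 and 3 were below all other libraries of either muscle. ATP2A1, the pump that returns calcium to the sarcoplasmic reticulum of fast fibres, measured 5269.6, 2617, 2659 and 2484 TPM in control replicates 1 to 4 and 4048, 2232, 3329 and 3754 TPM in treated replicates 1 to 4 in round muscle. In sirloin muscle ATP2A1 measured 4605, 3636, 3808 and 3296 TPM in control replicates 1 to 4 and 3506, 3408, 4240.1 and 3045 TPM in treated replicates 1 to 4. Unlike TPM1, the pump was not lowest in both treated round libraries 2 and 3. Its group means were 3258 ± 1343 (control) and 3341 ± 796 TPM (treated) in round and 3836 ± 555 and 3549.8 ± 501 TPM in sirloin muscle (mean ± SD, n = 4 each). Round control replicate 1, at 5269.6 TPM, was its highest library.

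Calves differed more in round than in sirloin muscle for each of the 10 genes, by the coefficient of variation of TPM over 8 calves. It ran from 29.5% (TNNT3) to 67.4% (MYH1) in round and from 7.65% (TNNC2) to 43.2% (MYH1) in sirloin muscle. Without treated replicates 2 and 3 in the round group it was still higher there for 9 of the 10. The difference in variation was not tested.

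Shares of the 3 fast heavy chains were computed as percentages of their summed TPM. MYH1 took 28.8, 27.6, 63.2 and 49.9% in control and 46.3, 4.37, 6.48 and 33.9% in treated round muscle, replicates 1 to 4 in order. Sirloin shares of MYH1 were 5.67, 29.5, 42.8 and 29.9% among control and 26.9, 46.9, 21.9 and 14.2% among treated calves. MYH2 made up nearly all the rest, from 33.2% in round control replicate 3 to 93.7% in round treated replicate 2. MYH4 never took more than 3.65%. Its share stayed within 1.48% to 3.65% while that of MYH1 ran from 4.37% to 63.2%.

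**Figure D3:**
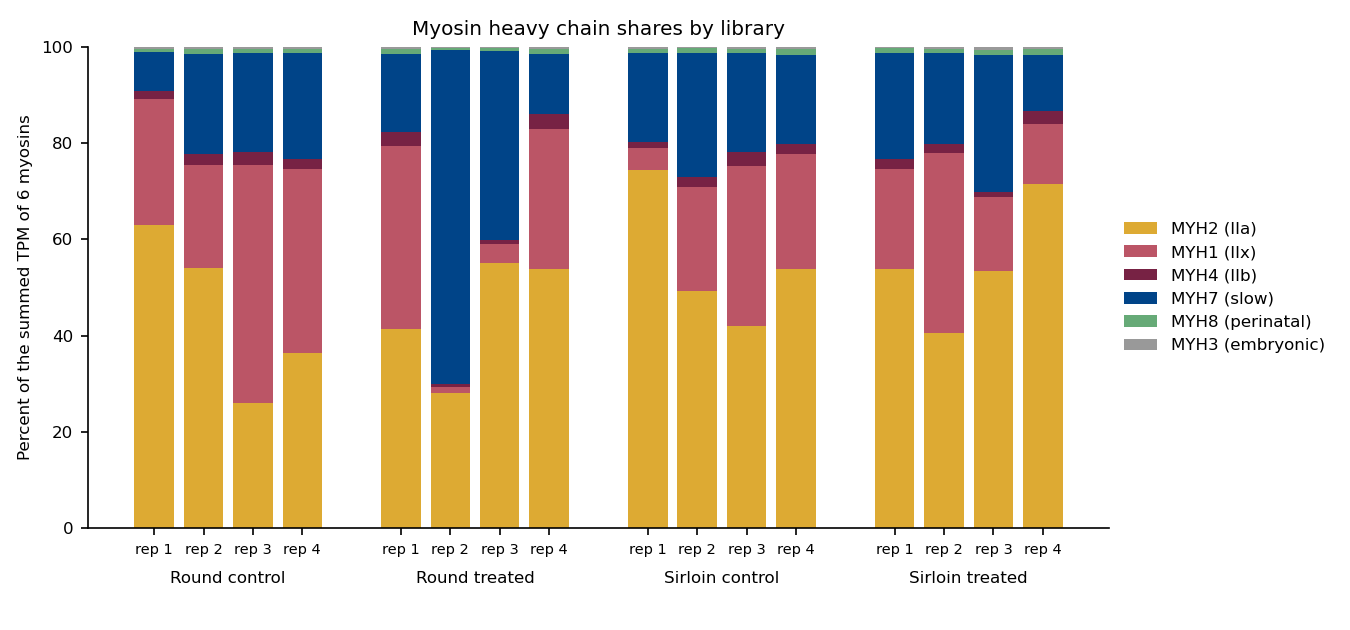
Stacked bars of 6 myosin heavy chain genes as percentages of their summed TPM, 1 bar for each of the 16 libraries, grouped by muscle and diet. MYH2 and MYH1 fill most of each bar except in round treated replicate 2, where MYH7 takes most, and the perinatal MYH8 and embryonic MYH3 are thin bands at the top.

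In treated round muscle the mean share of MYH1 was 22.8%, against 42.4% in control, a difference of -19.6 points (two-sided exact permutation test over 70 splits, p = 0.229, adjusted p = 0.943 over 9 share tests). MYH2 differed by 19.7 points the other way (exact permutation p = 0.229, adjusted p = 0.943). Sirloin muscle showed a difference of 0.501 points for MYH1 (exact permutation p = 0.914, adjusted p = 0.943). Round exceeded sirloin muscle by 5.34 points of MYH1 share, higher in 5 of 8 calves (exact permutation of signs, p = 0.531, adjusted p = 0.943). None of the 9 share tests passed. The smallest p that 4 against 4 calves allow is 0.0286 before adjustment. With adjustment over 9 tests, a diet difference in a single muscle alone could not have passed, whatever its size. No conclusion on diet is therefore drawn from the adjusted values. The unadjusted exact permutation p of MYH1 and MYH2 in round muscle, 0.229, also lay above the smallest possible p. Without treated calves 2 and 3 the round difference in MYH1 share was -2.27 points.

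With the slow myosin added, MYH7 took 8.15, 21.1, 20.7 and 22.4% of the summed TPM of the 4 genes in control and 16.4, 69.9, 39.5 and 12.6% in treated round muscle, replicates 1 to 4. Sirloin shares of MYH7 lay between 11.8% and 28.8%. Of all 6 heavy chains, MYH8 took 0.469% to 1.31% and MYH3 0.119% to 0.571%. MYH1, MYH2, MYH4 and MYH7 thus made up nearly all of the summed TPM of these 6 genes in these newborn muscles. MYH6, at 63.5 to 562 TPM, and MYH13 were not in the sum. The ratio of MYH1 to MYH4 ran from 2.29 to 19.6, lowest in round treated replicate 2.

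Maternal overfeeding was compared first in round muscle. None of the 10 genes passed the test between treated and control calves (edgeR's quasi-likelihood test, 0 of 10 with an adjusted p below 0.05 and 0 of 10 with an unadjusted p below 0.05), where 0.0185% of 21677 genes tested passed the adjusted and 4.41% the unadjusted threshold. The diets overlapped in all 10 genes, while 1.74% of all genes tested had TPM that did not overlap. The fitted log2 fold change, treated over control, was -0.56 for MYH1 (SE 0.85, 95% interval -2.40 to 1.29, adjusted p = 0.964). It was -0.075 for MYH2 and -0.0029 for MYH4. The light chains stood at 0.14 (MYL1) and -0.34 (MYLPF), and the troponins at -0.28 (TNNT3), -0.19 (TNNI2) and -0.14 (TNNC2). TPM1 stood at -0.33 (95% interval -1.22 to 0.56) and ATP2A1 at -0.061. The intervals were wide, and that of MYH1 spanned large changes in either direction.

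These round values rested on treated replicates 2 and 3. Without them all 10 fold changes were above 0, from 0.15 (TNNT3) to 0.73 (MYH4), where 9 of 10 had been below 0 with all libraries. MYH1 moved to 0.34 and TPM1 to 0.23. Again 0 of 10 had an adjusted p below 0.05, and MYH4 alone had an unadjusted p below 0.05 (unadjusted p = 0.0432, adjusted p = 0.943 by edgeR). Replicates 2 and 3 had been set apart as the lowest round libraries in 7 of the 10 genes, MYH4 among them. Leaving them out therefore raises the fold changes of those genes by construction, and only treated replicates 1 and 4 remained. The signs and p-values without them are descriptions and no test of the diet.

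In sirloin muscle the fitted values of all 10 genes were below 0, and none passed the test (edgeR's quasi-likelihood test, 0 of 10 with an adjusted and 0 of 10 with an unadjusted p below 0.05). Of the 21776 genes tested, 0.00918% passed the adjusted and 3.91% the unadjusted threshold. The median of the 10 was -0.26, beside 0.029 over all genes tested. In the same fit 8 of 8 sarcomere genes that all fibres use and 8 of 10 slow fibre genes also lay below 0. Among genes of the developing sarcomere 2 of 6 did (these lists are described below). The direction was thus not particular to the fast fibre genes. The diets overlapped in all 10 genes here too, against 2.99% of all genes with no overlap. TNNT3 came closest, with control calves at 12376, 9783, 11868 and 11109 TPM and treated calves at 9884, 8648, 10138 and 10168 TPM. Its log2 fold change was -0.40 (SE 0.19, 95% interval -0.82 to 0.015, unadjusted p = 0.0571, adjusted p = 0.876 by edgeR). The heavy chains stood at -0.15 (MYH1), -0.30 (MYH2) and -0.20 (MYH4), and the light chains at -0.20 (MYL1) and -0.19 (MYLPF). TNNI2, TNNC2, TPM1 and ATP2A1 stood at -0.37, -0.22, -0.33 and -0.30. DESeq2 and limma-voom each gave 1 of 10 an unadjusted p below 0.05 in sirloin muscle and none an adjusted one.

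**Figure D4:**
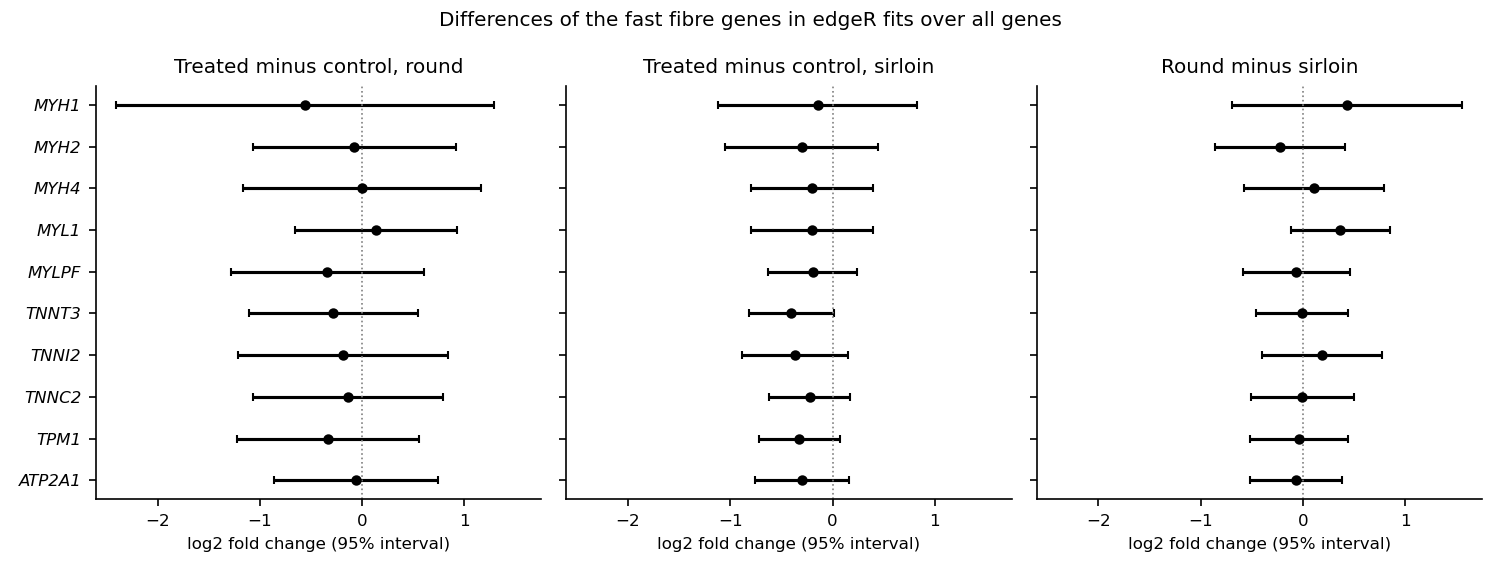
Log2 fold changes of the 10 genes (points) with 95% intervals (bars) from edgeR, for treated minus control calves in round and in sirloin muscle and for round minus sirloin muscle. Every interval includes 0, and MYH1 has the widest interval in each panel. The round minus sirloin fit has no term for the calf, so its intervals leave the pairing of a calf's muscles unused. With the calf as a block MYL1 had an unadjusted p below 0.05 by edgeR, and none of the genes was called.

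With the counts of both muscles of a calf summed, the diet difference was below 0 in 10 of 10 genes, from -0.39 (MYH1) to -0.056 (MYL1) on the log2 scale. Again 0 of 10 passed the adjusted and 0 of 10 the unadjusted threshold in edgeR, against 0.00437% and 3.85% of 22877 genes. The median of the 10 was -0.26, beside 0.012 over all genes tested. Without treated replicates 2 and 3, MYH1 moved to 0.13 and MYL1 to 0.20.

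Whether the diet difference itself differed between the muscles was tested as an interaction over all 16 libraries, as 4 groups and with no term for the calf. This fit left the pairing of a calf's muscles unused, so its intervals do not account for it. With the calf as a block 0 of the 10 genes were called as well. Values, the round minus the sirloin diet difference, ran from -0.45 for MYH1 (95% interval -2.70 to 1.79) to 0.31 for MYL1. In edgeR 0 of 10 passed the adjusted and 0 of 10 the unadjusted threshold, and of 22877 genes 0% and 2.78% did. Leaving out treated replicates 2 and 3 took MYH1 to 0.63.

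Round and sirloin muscle were compared over all 16 libraries, as 4 groups and with no term for the calf. None of the 10 genes passed the test (edgeR, 0 of 10 with an adjusted and 0 of 10 with an unadjusted p below 0.05), against 0.0612% and 6.33% of 22877 genes. MYL1 came closest, at a log2 difference of 0.37 (SE 0.23, 95% interval -0.12 to 0.85, adjusted p = 0.893), and was higher in round muscle in 3 of 4 control and 3 of 4 treated calves. MYH1 stood at 0.43 (95% interval -0.69 to 1.55), higher in round muscle in 4 of 4 control and 2 of 4 treated calves. MYH2, MYH4 and TNNI2 stood at -0.23, 0.11 and 0.19. MYLPF, TNNT3, TNNC2, TPM1 and ATP2A1 lay between -0.066 and -0.0079. The 95% interval of TNNT3 was -0.46 to 0.44.

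With the calf as a block, which the shared calves allow, the count of all genes called rose from 14 to 109, while 0 of the 10 were called. The direction of MYH1 and MYH4 turned under the block, to -0.046 and -0.085. MYL1 was then the single member with an unadjusted p below 0.05, at a log2 difference of 0.34 (SE 0.15, unadjusted p = 0.0436, adjusted p = 0.426 by edgeR). Without treated calves 2 and 3, MYLPF, TNNT3, TNNC2, TPM1 and ATP2A1 lay between 0.11 and 0.24, with no term for the calf. None was called. These calves had been set apart as the lowest round libraries in MYLPF, TNNT3, TNNC2 and TPM1. Leaving them out therefore raises the values of those genes by construction. The signs without them are descriptions and no test of the muscles.

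Because each calf gave both muscles, the level of a gene in round muscle could be set against its level in the sirloin of the same calf, in log2 CPM (counts scaled to the library total) over 8 calves. The tests were exact permutation tests over 40320 pairings, adjusted over the 10 genes. MYLPF gave r = 0.806 (permutation p = 0.0207, adjusted p = 0.0539) and Spearman's rho = 0.881 (permutation p = 0.00724, adjusted p = 0.0536), and r was 0.847 without the 2 calves farthest from the median. MYH2 gave r = 0.802 (permutation p = 0.0216, adjusted p = 0.0539) and Spearman's rho = 0.857 (permutation p = 0.0107, adjusted p = 0.0536), and r was 0.624 without its 2 farthest calves. Neither passed the adjusted threshold.

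MYH4 gave r = 0.906 (permutation p = 0.00427, adjusted p = 0.0427) and Spearman's rho = 0.738 (permutation p = 0.0458, adjusted p = 0.115). Treated calves 2 and 3 lay far below the rest in round muscle for MYH4, and were also the lowest in sirloin muscle, by less. Over the other 6 calves r was 0.549, so the pooled value rests on treated calves 2 and 3. MYH1 gave r = -0.158 (permutation p = 0.746, adjusted p = 0.746) and Spearman's rho = 0.0952 (permutation p = 0.840, adjusted p = 0.840), and 0.0752 over the 6 calves other than these. In the other genes r lay between 0.545 (ATP2A1) and 0.835 (TNNI2), with no adjusted p below 0.05, and for MYL1, TNNT3, TPM1 and ATP2A1 it fell to 0.0299, 0.157, -0.00619 and -0.498 without the 2 farthest calves. Agreement of this kind was common among all genes: the unadjusted permutation p of r was below 0.05 in 6 of the 10 members and in 33.1% of 7337 genes with a mean CPM of at least 10, and the median r was 0.732 and 0.594. With the diet means removed, r was 0.852 for MYH2, 0.899 for MYH4, 0.771 for MYLPF, 0.772 for TNNT3 and 0.848 for TNNI2, with adjusted permutation p of 0.0294, 0.0263, 0.0488, 0.0488 and 0.0294. By Spearman's rho TNNT3 did not pass (adjusted permutation p = 0.0613) and TPM1 did (0.0436). The unadjusted permutation p was then below 0.05 in 5 of 10 members and in 38.7% of the 7337 genes, with median r of 0.724 and 0.622. Pairings were here permuted across both diets, with no allowance for the removed means. The permutation p-values with diet means removed are therefore approximate, not exact, and may be too small. Within a diet there were only 4 calves, too few for a correlation.

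**Figure D5:**
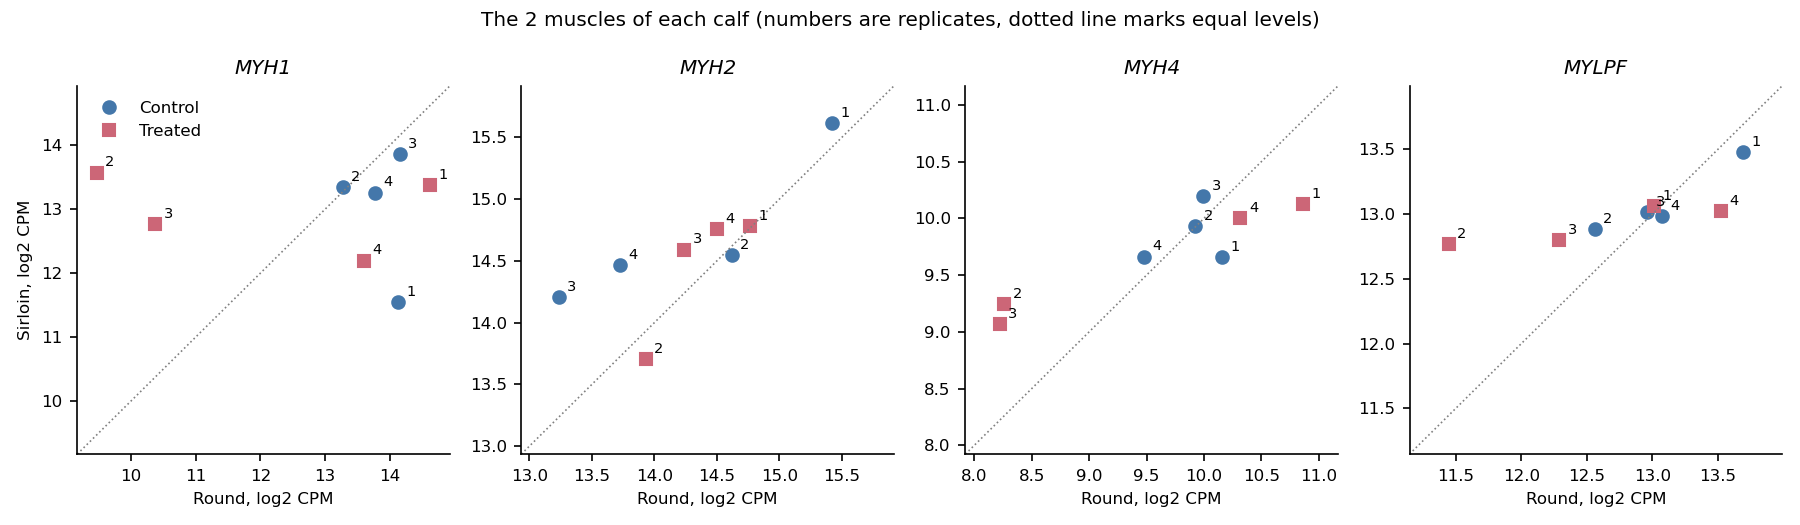
Log2 CPM in round muscle (horizontal) against log2 CPM in the sirloin of the same calf (vertical) for MYH1, MYH2, MYH4 and MYLPF, with 1 point per calf (n = 8) numbered by replicate, control and treated calves in separate symbols. For MYH1, treated calves 2 and 3 lie far to the left of the dotted line of equal levels. Control calf 1 lies far to its right for MYH1. For MYH2 and MYLPF the calves lie nearer to the line.

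Across the 16 libraries the 10 genes moved largely together, and 43 of their 45 pairs had a Pearson correlation of log2 CPM above 0, 9 of them above 0.9. Of all pairs among the 7337 genes, 51.5% were above 0 and 0.0373% above 0.9. Without round treated replicates 2 and 3, an alternative added after the data were seen, 41 of 45 were above 0 and 2 above 0.9, beside 51.2% and 0.0762% of all pairs, so most of the values above 0.9 rested on these libraries. All these libraries share calves and scaling, so the values are descriptions. TNNT3 and TNNI2 reached 0.971, and 0.944 without these libraries, and MYH1 and MYH4 0.820 and 0.472. MYH1 stood at -0.0264 with MYH2 and -0.0172 with MYL1, the pairs not above 0 over the 16 libraries, and at -0.447 and -0.0139 without these libraries.

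Outside the group, the genes most like each heavy chain were sought among 7337 genes over the same 16 libraries. For MYH1 they were MYH13, a myosin of extraocular and laryngeal muscle (r = 0.994), POLB, a DNA repair polymerase (0.855), and PSMC2, a proteasome subunit (0.844). MYH13 lay at 0.885 to 32.4 TPM, and how reads shared with its cluster neighbours were assigned is not given in the sources used here. MYH2 was followed most closely by GAMT, which makes creatine (0.870), SLC9A5, a sodium and proton exchanger (0.839), and STIM1, a calcium sensor of the sarcoplasmic reticulum (0.837). MYH4 was followed by UROS, of haem synthesis (0.890), HRAS, a small GTPase (0.889), and MYBPC2, the fast form of myosin binding protein C (0.864). Without round treated replicates 2 and 3, r was 0.979 for MYH13, 0.640 for POLB and 0.770 for PSMC2 with MYH1. It was then 0.863 for GAMT, 0.878 for SLC9A5 and 0.874 for STIM1 with MYH2, and 0.853 for UROS, 0.807 for HRAS and 0.629 for MYBPC2 with MYH4.

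Slow fibre genes, the counterparts of the fast ones, were taken as a list of 10. None was called in any of the comparisons by diet or muscle (edgeR, adjusted p). In round muscle all 10 had fitted diet differences above 0 with a median of 0.77, beside -0.16 for the fast fibre genes and 0.023 for all genes tested, and 4 of 10 had an unadjusted p below 0.05, as did 4.41% of all genes tested. MYH7, the gene of the list with the highest mean CPM, which is not scaled to length, measured 1354, 2876, 1929 and 1987 TPM in control replicates 1 to 4 and 2954, 11858, 3769 and 1434 TPM in treated replicates 1 to 4 in round muscle, and its log2 fold change was 1.15 (SE 0.51, unadjusted p = 0.0458, adjusted p = 0.864 by edgeR). MYBPC1, the slow form of myosin binding protein C, stood at 0.30 (adjusted p = 0.947). In sirloin muscle the median of the list was -0.22, with 2 of 10 above 0. The round values rested on treated replicates 2 and 3, the highest round libraries in 7 of the 10. Without them the median of the slow fibre genes was -0.026, beside 0.29 for the fast fibre genes and -0.057 for all genes tested. Then 5 of 10 were above 0 and 0 of 10 below the unadjusted threshold, and MYH7 stood at 0.075. These replicates had been set apart as highest in 7 of 10 slow and lowest in 7 of 10 fast fibre genes. Leaving them out therefore lowers the former and raises the latter by construction, and only treated replicates 1 and 4 remained. The values without them are descriptions and no test of the diet.

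Other genes of fast fibres, a list of 10, had a median diet difference of -0.13 in round and -0.40 in sirloin muscle. The medians over all genes tested were 0.023 and 0.029. Of this list 8 and 9 of 10 were below 0 and none was called. MYOZ1, a fast fibre protein of the Z-disc, stood at -0.038 and -0.25, and RYR1, the calcium release channel, at -0.04 and -0.51. Between the muscles 3 of 10 were below the unadjusted threshold with lower levels in round muscle, where 6.33% of all genes tested passed in either direction, again with none called. Sarcomere genes that all fibres use, a list of 8 in which skeletal actin ACTA1 and titin TTN had the highest mean CPM, which is not scaled to length, had a median of 0.20 in round and -0.40 in sirloin muscle. ACTA1 stood at 0.19 and -0.42 and TTN at 0.06 and -0.47, with no call. Without treated replicates 2 and 3 the round median was 0.17 for the other fast fibre genes, 9 of 10 being above 0, and -0.036 for the sarcomere genes.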

How the data were processed

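RNA-seq libraries of 16 muscle samples were analysed. For each gene the authors deposited raw read counts and values named TPM, scaled to transcript length and library total, which summed to between 999756 and 1000000 per library. Sources differ on how they were made. The submitters' processing notes name FastQC, Trimmomatic, STAR, featureCounts, DESeq2 and the build ARS-UCD1.2, and the labels a poly(A) protocol, whereas the study's methods describe a stranded library with rRNA and globin removal, HISAT2, Bowtie2 and StringTie. How reads shared between paralogs were counted is not given in the sources used here. The authors' own fold changes and p-values for treated against control were also deposited and not used. Coordinates are not printed, because the gene table at hand is of another build (ARS-UCD2.0), from which 30762 of 34109 gene IDs took a symbol.

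Counts of genes with at least 1 count in a fit were tested with edgeR 4.0.16 (TMM factors, glmQLFit, glmQLFTest, two-sided) in R 4.3.3, within each muscle, over calves with both muscles summed, and over 4 groups of 16 libraries for muscle and interaction. P-values were Benjamini-Hochberg adjusted over all genes, with a threshold of 0.05. The standard error was the log2 fold change over the square root of F. Alternatives were DESeq2 1.42.0, limma 3.58.1 (voom, and log2 of TPM plus 1 or 0.1), RLE factors, filterByExpr, a replicate block and leaving out calves. Shares and correlations were tested by exact permutation (SciPy 1.17.1), the latter using log2 CPM (prior count 2). For correlations with diet means removed the permutation ran across both diets and is approximate. The edgeR, DESeq2 and limma-voom fits were tried on simulated counts with no calf effect. The share and correlation tests were not tried on such data.

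Round and sirloin libraries of a calf correlated at 0.25 to 0.595 after group means were removed, each calf best with itself. Control and treated calves with the same number did not pair (-0.154 to 0.188). Calves are the replicates, and p-values by diet within a muscle or over summed muscles measure the spread between calves. The fits over 16 libraries with no term for the calf mix this with the spread between a calf's muscles. The text names all 10 genes, from each further list its called members or otherwise the 2 with the highest mean CPM, and the 3 genes most like each heavy chain among those with a mean CPM of at least 10; genes named beyond this were chosen after their values were seen. The 10 genes, the lists and the tests were chosen with earlier results of these data known. A gene that this rule would name is not reported here.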

Additional observations from a re-analysis of the deposited data

Results flagged for a closer look

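Of 52 groups of 4 libraries tested for a value far from the rest, over the 10 genes and the heavy chain shares, 3 had one, where chance gives about 1 in 20. In control round muscle, replicate 1 was far above the other 3 for TNNC2, at 16286 TPM against 10261 to 11213 TPM, and for ATP2A1, at 5269.6 TPM against 2484 to 2659 TPM. The same library was the highest of the control round group in 8 of the 10 genes. In control sirloin muscle, replicate 2 was the lowest for TPM1, at 7150.3 TPM against 8078 to 8264 TPM. The gap of the outer value to its neighbour took 0.842 of the group's range for TNNC2, 0.937 for ATP2A1 and 0.833 for TPM1, above the critical value for 4 samples. The cause was not tested. Treated round replicates 2 and 3, described above, were not found by this test.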

How the results depend on the processing

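None of the 10 genes was called in any of the 81 fits over comparisons and alternatives, and the lowest adjusted p of a member in any was 0.283. Some fold changes changed sign under alternatives, those of MYH1 among them, and none was called; the cause was not tested. DESeq2 and RLE factors changed no sign. Depth is not a limit for these abundant genes, while 4 calves a group leave wide intervals. The count of all genes called in the round minus sirloin comparison was 14 without a term for the calf and 109 with the calf as a block, and the pairing of the muscles changed no call of the 10 genes.

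Without both treated replicates 2 and 3, an alternative chosen after seeing the data, log2 fold changes by diet in round muscle were 0.34, 0.17, 0.73, 0.18, 0.15, 0.37, 0.41, 0.23 and 0.19 for MYH1, MYH2, MYH4, MYLPF, TNNT3, TNNI2, TNNC2, TPM1 and ATP2A1. By diet over both muscles they were 0.13 and 0.20 for MYH1 and MYL1, and the interaction of MYH1 was 0.63. Between round and sirloin muscle they were 0.13, 0.18, 0.24, 0.21 and 0.11 for MYLPF, TNNT3, TNNC2, TPM1 and ATP2A1, and with the calf block as well 0.10, 0.16, 0.22, 0.21 and 0.071 for MYLPF, TNNT3, TNNC2, TPM1 and ATP2A1. Share differences by diet became -6.43 (MYH1, sirloin), 5.99 (MYH2, sirloin), 0.811 (MYH4, round) and 0.442 points (MYH4, sirloin). These replicates had been set apart by their round levels of most of these genes. All values without them are therefore descriptions and no tests.

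The replicate block of label numbers gave 0.13 for MYH2 by diet in round muscle, and the numbers do not pair calves across diets. With the calf as a replicate block, round minus sirloin was -0.046 and -0.085 for MYH1 and MYH4. By limma-voom MYH2 stood at 0.13 by diet in round muscle, and round minus sirloin was -0.064 and -0.085 for MYH1 and MYH4. By limma on log2(TPM + 1), diet in round muscle gave 0.23 and 0.077 for MYH2 and ATP2A1, diet in sirloin muscle 0.15 for MYH1, and round minus sirloin -0.14, -0.16 and -0.032 for MYH1, MYH4 and TNNI2. With a pseudocount of 0.1 these were 0.23 and 0.077, then 0.15, then -0.14, -0.16 and -0.032. The filterByExpr filter gave 0.0027 for TNNC2, round minus sirloin. With MYH3, MYH7 and MYH8 in the sum, share differences were -0.259 (MYH2, diet in round), 0.011 (MYH4, diet in sirloin) and -0.0031 points (MYH4, round minus sirloin). With the diet means removed, the correlation between a calf's muscles passed the adjusted threshold at 0.852, 0.771, 0.772 and 0.848 for MYH2, MYLPF, TNNT3 and TNNI2. These passes rest on permutation p-values that are approximate and may be too small.

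Leaving out each calf in turn changed the sign of 16 of 48 values without treated replicate 2, 9 without control replicate 1, 8 without treated replicate 3, 6 without control replicate 3, 4 without control replicate 2, 2 each without treated replicates 1 and 4, and 0 without control replicate 4. The ranges of those that changed are as follows. By diet in round muscle they were -0.33 to 0.44 (MYH2), -0.60 to 0.28 (MYH4), -0.18 to 0.40 (MYL1), -0.52 to 0.094 (TNNI2), -0.49 to 0.099 (TNNC2) and -0.23 to 0.32 (ATP2A1). By diet in sirloin muscle they were -0.43 to 0.16 (MYH1) and -0.46 to 0.10 (MYH2), and over both muscles -0.25 to 0.16 (MYL1). Round minus sirloin ranged over -0.032 to 0.73 (MYH1), -0.088 to 0.19 (MYH4), -0.24 to 0.043 (MYLPF), -0.12 to 0.078 (TNNT3), -0.15 to 0.13 (TNNC2), -0.15 to 0.067 (TPM1) and -0.18 to 0.0046 (ATP2A1), and the interaction of MYH1 over -1.38 to 0.15. Share differences by diet ranged over -6.60 to 5.77 (MYH1, sirloin), -6.01 to 7.0 (MYH2, sirloin), -0.434 to 0.267 (MYH4, round) and -0.402 to 0.240 points (MYH4, sirloin).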

Other observations

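Genes of the developing sarcomere, a list of 6, summed to 573 to 2888 TPM per library and none was called in any comparison (edgeR, adjusted p). Diet differences in round muscle had a median of 0.056, and those in sirloin muscle of 0.30, with 0.023 and 0.029 over all genes tested. MYL6B, a light chain of slow fibres and embryonic muscle, measured 476, 268, 282 and 252 TPM in control replicates 1 to 4 and 135, 2659.8, 1906 and 347 TPM in treated replicates 1 to 4 in round muscle, where treated replicates 2 and 3 were the highest. Without them its round difference was -0.46, and the median of the list was 0.39. Its sirloin levels were 1051, 878, 1272 and 1527 TPM in control replicates 1 to 4 and 2103, 929, 2244 and 759.9 TPM in treated replicates 1 to 4. The diet difference of MYL6B was 1.79 in round (SE 0.70, adjusted p = 0.864 by edgeR) and 0.18 in sirloin muscle (adjusted p = 0.9998 by edgeR). MYH8, the perinatal heavy chain, stood at -0.041 and -0.23.

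Regulators of the fast fibre programme were a list of 11 transcription factors and cofactors. Their fitted diet differences were below 0 in 11 of 11 in sirloin and 4 of 11 in round muscle. In sirloin muscle 8 of 8 sarcomere genes that all fibres use also lay below 0, as did 2 of 6 of the developing sarcomere. The direction was thus not particular to the regulators. Medians of the regulators were -0.32 in sirloin and 0.13 in round muscle, beside 0.029 and 0.023 over all genes tested. None was called, and 3 of 11 in sirloin and 1 of 11 in round muscle had an unadjusted p below 0.05 with lower levels in treated calves, where 3.91% and 4.41% of all genes tested passed in either direction. TBX15, a factor of glycolytic fast fibres, stood at -0.32 in sirloin and 0.14 in round muscle. EYA4, a transcriptional cofactor, was singled out after its values were seen. It measured 34.3, 33.9, 38.7 and 26.7 TPM in control replicates 1 to 4 and 25.8, 22.5, 26.1 and 27.0 TPM in treated replicates 1 to 4 in sirloin and 23.5, 76.1, 77.2 and 32.4 TPM in control replicates 1 to 4 and 31.0, 22.9, 14.7 and 32.0 TPM in treated replicates 1 to 4 in round muscle. The difference in sirloin muscle was -0.58 (SE 0.20, unadjusted p = 0.0132, adjusted p = 0.876 by edgeR), and in round muscle -1.10 (SE 0.39, unadjusted p = 0.0155, adjusted p = 0.864 by edgeR). Without treated replicates 2 and 3 it was -0.73 in round muscle (unadjusted p = 0.134, adjusted p = 0.943 by edgeR). The diets overlapped in both muscles.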
